A study of Mus musculus with 2 samples.

Results

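T follicular helper (Tfh)-like cells were picked from the mediastinal lymph nodes (MedLNs) of asthmatic mice by the unique molecular identifiers (UMIs, each standing for 1 captured transcript) of 5 marker genes. A Tfh-like cell held at least 1 UMI of the CD3 genes Cd3e, Cd3d and Cd3g, none of the CD8 genes Cd8a and Cd8b1, the B cell genes Cd79a and Cd79b, the regulatory T cell gene Foxp3 and the cell cycle genes Mki67 and Top2a, and at least 2 of the 5 markers Cxcr5, Pdcd1, Bcl6, Il21 and Tox2. The rule found 51 cells among 3004 T cells that met all of its conditions but the last, here called conventional T cells, and among 18100 cells that passed the quality filters out of 18613 deposited. The rule used no Cd4 UMI, yet Cd4 was detected in 22 of the 29 Tfh-like cells w/o butyrate and in 18 of the 22 w/ butyrate. These shares (75.9% and 81.8%) stood beside 48.7% and 50.7% of the other conventional T cells, 6.56% and 7.56% of CD8+ T cells and 0.65% and 0.656% of B cells, and Trac, the constant gene of the T cell receptor α chain, was detected in all 51 cells.

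Both groups were wild-type C57/B6J mice with OVA-induced asthma, 5 to 13 weeks old. The mice were immunized intraperitoneally with 50 µg ovalbumin (OVA) in alum on days 0 and 7, challenged through the nose on days 14 to 16 and killed on day 17. They differed in butyrate, a short-chain fatty acid made by gut bacteria, which the w/ butyrate group received and the w/o butyrate group did not; its dose and route for the sequenced mice are not given in the sources used here. MedLNs of 4 mice were pooled into 1 library per group, the total cells of the nodes were taken, by a protocol that calls them sorted but names no gate, and the study asked by which routes butyrate acts on IgE in this asthma model. With 1 library per group there was no test between groups, and every interval below covers counting error only.

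Tfh cells are CD4+ T cells that enter the B cell follicle and drive germinal centres. The transcription factor BCL6 sets their fate, CXCR5 brings them toward the follicle, and ICOS, CD40 ligand, IL-21 and IL-4 let them help B cells divide, mature and switch their antibody class. In allergic responses they are a source of the IL-4 that drives switching to IgE.

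The w/o butyrate library held 9681 cells and 59176459 UMIs, and the w/ butyrate library 8932 cells and 58381292 UMIs. The median cell had 5140 and 5651 UMIs. The 29 and 22 Tfh-like cells carried 172304 and 157864 UMIs, with medians of 5036 (range 2906 to 11204) and 6184 (range 2949 to 18640) per cell, against 4916.5 and 5648 in the other conventional T cells. Both libraries shared 25 cell barcodes, none of them from a Tfh-like cell. The deeper w/ butyrate cells make detection easier there, so for several genes the share of cells with a UMI is also given after each cell was thinned to 2000 UMIs. Thinned, Cd4 was detected in 37.9% and 59.1% of Tfh-like cells and 25.2% and 24.4% of other conventional T cells.

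The markers that chose the cells were spread unevenly over them. Pdcd1, which encodes the inhibitory receptor PD-1, was detected in 22 of 29 cells w/o butyrate and in 17 of 22 w/ butyrate. Tox2, a transcription factor of the Tfh program, was detected in 21 and 18 cells, and the chemokine receptor gene Cxcr5 in 14 and 15. Bcl6 was found in 15 and 8 cells and the cytokine gene Il21 in 6 and 7. The most frequent pair was Pdcd1 with Tox2, seen together in 16 and 14 cells, and Cxcr5 was seen with Pdcd1 in 9 and 11. Only 1 cell, w/ butyrate, held all 5 markers. Since the rule used these genes, their levels describe the choice and support nothing further. In B cells, which use both genes themselves, Cxcr5 had a UMI in 26.4% and 29.5% of cells and Bcl6 in 8.58% and 11.6%, at median depths of 4364 and 4619 UMIs.

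At the threshold, 13 cells w/o butyrate (0.781% of conventional T cells) and 9 w/ butyrate (0.672%) held exactly 2 markers, and 89 (5.35%) and 78 (5.83%) held exactly 1 and stayed outside. Detection of markers was limited by depth: 13 of 29 cells (44.8%) and 10 of 22 (45.5%) still showed at least 2 markers after thinning. Cells with CD3 and at least 2 markers were 116 w/o and 110 w/ butyrate in all, and the gate left out 87 and 88 of them. Of these, 5 and 9 fell out only for a CD8 gene, 15 and 28 only for Cd79a or Cd79b, 2 and 7 only for Foxp3, 22 and 4 only for Mki67 or Top2a, and 43 and 40 for more than 1 of these.

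**Figure D1:**
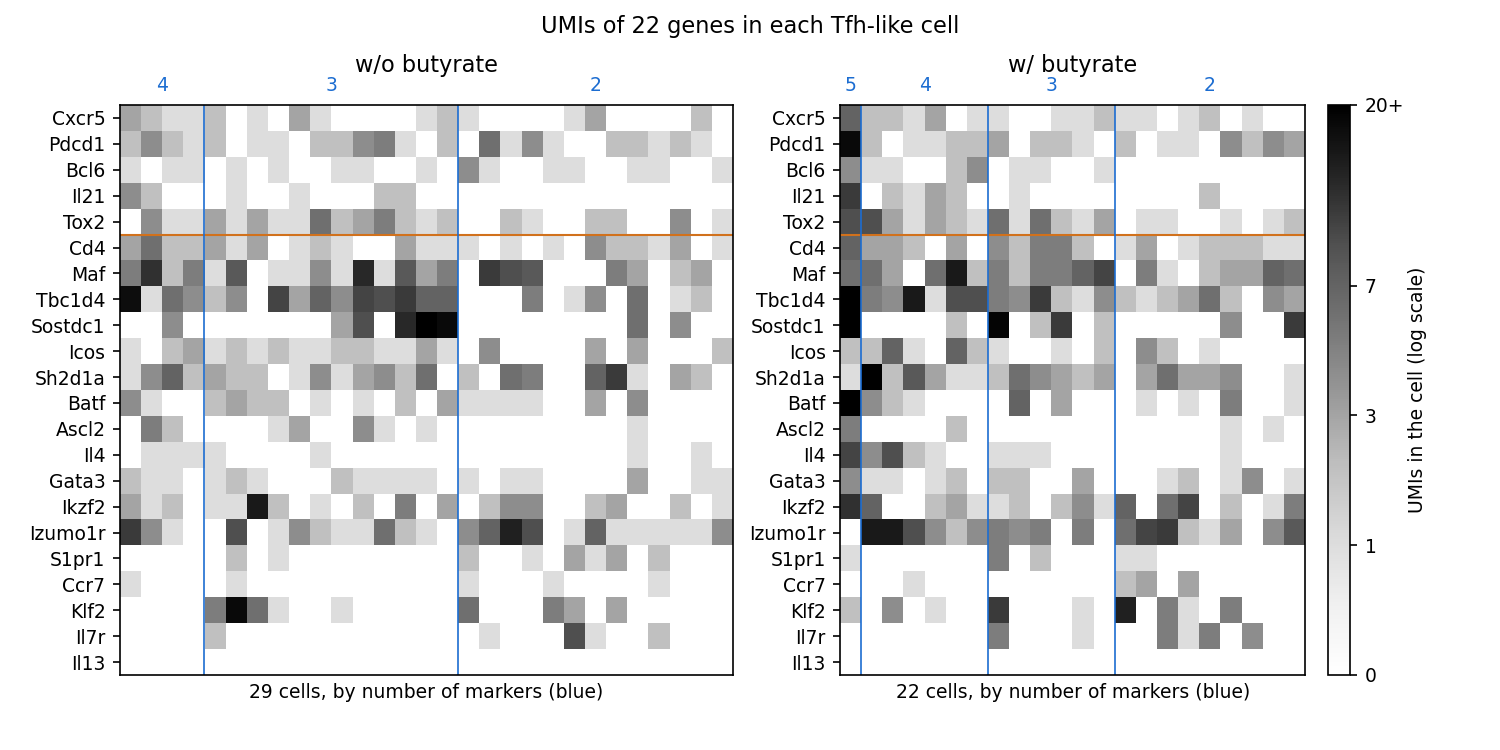
UMIs of 22 genes (vertical axis) in each Tfh-like cell (columns), 29 w/o and 22 w/ butyrate, on a grey log scale that ends at 20 UMIs. Blue lines part the cells by the number of markers and the orange line lies under the 5 genes of the rule; Maf and Tbc1d4 fill most columns, Sostdc1 is dense in a few, and Il13 has no UMI in any cell.

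Maf combined a high ratio with detection in most Tfh-like cells. It encodes the transcription factor c-MAF, known to drive Il21 and Il4 in helper T cells, and lies at chr8:115682942-115707794 on the minus strand (mm10). Maf had a UMI in 22 of 29 cells w/o butyrate (75.9%, exact binomial 95% interval 56.5 to 89.7) and in 19 of 22 w/ butyrate (86.4%, 65.1 to 97.1), against 6.48% and 7.21% of other conventional T cells, 2.41% and 2.93% of CD8+ T cells at 6320 and 7465 median UMIs, and 5.51% and 4.32% of B cells. After thinning, 62.1% and 54.5% of Tfh-like cells kept a UMI of Maf, against 3.83% and 3.99% of the other conventional T cells. The 29 cells held 111 Maf UMIs, from 0 to 13 with a median of 3, and the 22 cells held 99, from 0 to 15 with a median of 5. Summed over cells and scaled to the same total of UMIs in every class (CPM), this was 644 CPM against 25.3 w/o butyrate and 627 CPM against 25.6 w/ butyrate. Maf was thus spread over most of the cells of both libraries. With a pseudocount of 10 CPM the log2 ratios were 4.21 and 4.16, and without it 4.67 (4.32 to 5.01) and 4.62 (4.25 to 4.97); with the cell of most Maf UMIs left out they were 4.07 and 3.98.

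Beside Maf stood Tbc1d4 and Sostdc1, of which Sostdc1 had higher ratios than Maf but was detected in fewer cells. Tbc1d4 (chr14:101442360-101609191, minus strand), which encodes a regulator of glucose transporter traffic, was detected in 21 of 29 and 21 of 22 cells with 121 and 113 UMIs, at log2 ratios of 3.89 and 4.19. After thinning its shares were 58.6% and 68.2%, against 5.93% and 4.84% of other conventional T cells. Sostdc1 (chr12:36314139-36318452, plus strand) encodes a secreted antagonist of BMP and WNT signals and is known from Tfh cells of germinal centres. Its 99 and 104 UMIs came from 8 cells in each library, 42 of them from 1 cell w/o butyrate and 53 from 1 cell w/ butyrate, and 21 and 14 cells had none. The log2 ratios of Sostdc1 were 5.69 and 6.01, and 4.94 and 5.13 with the cell of most UMIs left out. Every Sostdc1+ cell, 8 of 8 in each library, also held UMIs of Maf and Tbc1d4. At least 1 of Maf and Tbc1d4 was present in 24 of 29 and 22 of 22 Tfh-like cells.

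The other named members of the Tfh program were mostly higher than in other conventional T cells, in both libraries. Genes counted as measured when the UMIs of both summed classes came to 50 or more. Of a list of 20 Tfh genes outside the rule, 17 were measured w/o butyrate, of which 11 were at least 2-fold higher and 0 at least 2-fold lower, with a median log2 ratio of 1.19. Among all 7839 genes measured there, 660 (8.42%) were at least 2-fold higher and 361 (4.61%) at least 2-fold lower, with a median of 0.21. W/ butyrate, 12 of 16 were higher and 0 lower, at a median of 1.69, against 748 (9.68%) higher and 411 (5.32%) lower of 7729 genes and again a median of 0.21. That median was 0.00 and -0.01 when ribosomal, mitochondrial and immunoglobulin genes were left out of the totals. Both libraries together gave 7589 genes, of which 270 (3.56%) were at least 2-fold higher in both and 118 (1.55%) at least 2-fold lower in both. Both comparisons rest on the same rule, so that overlap is a description.

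Receptors and signalling molecules of T cell help differed in degree. Icos, the costimulatory receptor that holds Tfh cells in the follicle, was detected in 19 of 29 and 12 of 22 cells, at log2 ratios of 2.01 and 1.91. Sh2d1a, which encodes the adaptor SAP needed for contact with B cells, was detected in 22 and 19 cells (2.16 and 2.33), and Cd200, an inhibitory ligand, in 9 and 10 (2.82 and 2.31). Izumo1r, the folate receptor FR4 of Tfh, anergic and regulatory T cells, was found in 24 and 18 cells (2.24 and 2.81). Cd40lg, the ligand that activates B cells through CD40, stayed under 2-fold in both libraries (0.82 and 0.24), and so did the chemokine receptor gene Cxcr4 (0.31 and 0.62).

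Transcription factors of the program were higher as well. Tox reached 1.85 and 2.0, Id3 1.19 and 1.71 (0.61 and 1.22 after thinning) and Batf, an AP-1 family factor, 1.79 and 2.83, although 1 cell held 49.0% of the Batf UMIs w/ butyrate. Tcf7, which is already abundant in naive T cells, reached 0.53 and 0.76. Ascl2, which raises CXCR5, had 18 UMIs in 8 cells w/o butyrate and none among 1636 other conventional T cells; taking 3 counts over that group as the floor, it was at least 290.0-fold higher, while the counting interval, which also holds the error of the 18 UMIs, starts lower, at a log2 ratio of 7.73. W/ butyrate it had 9 UMIs in 4 cells. Pou2af1, a coactivator shared with B cells, was at 2.18 w/o butyrate and had too few UMIs w/ butyrate.

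Genes of naive and recirculating T cells were lower in both libraries. Of the 8 naive T cell genes, 7 were at least 2-fold lower w/o and w/ butyrate, at medians of -2.50 and -2.24, and Tcf7 was the exception. Of all measured genes, 4.61% and 5.32% were at least 2-fold lower. Klf2, the factor that keeps T cells recirculating, had a UMI in 9 of 29 cells (31.0%) and 9 of 22 (40.9%) against 94.4% and 94.5% of other conventional T cells, with log2 ratios of -2.49 and -2.35. Thinned, these shares were 20.7% and 9.09% against 86.0% and 85.6%. S1pr1, the receptor for exit from the node and a gene that KLF2 is known to drive, was at -2.07 and -2.39. The homing receptor gene Ccr7 was at -2.72 and -1.98 and the IL-7 receptor gene Il7r at -2.84 and -1.98.

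Several low genes reached the floor of these sums. Igfbp4, which is high in naive CD4+ T cells, was at -3.87 w/o butyrate and had 0 UMIs w/ butyrate, at least 25-fold lower than in other conventional T cells. Ccl5, a chemokine gene of memory and cytotoxic T cells, had 0 UMIs w/o butyrate, at least 12.0-fold lower, and was at -3.81 w/ butyrate. Dapl1 (-2.93 and -3.76), Smad7, an inhibitor of TGF-β signals (-2.70 and -2.69), Ly6c1 (-2.22 and -3.03) and Rasgrp2 (-2.13 and -2.17) were also among the lowest genes, as was Gm2682 (-2.24 and -3.77). Of 13 genes known to be lowered in Tfh cells, 6 of 12 measured were at least 2-fold lower w/o butyrate and 5 of 12 w/ butyrate. Among all measured genes these shares were 4.61% and 5.32%. In the w/ butyrate library Il2rb and Id2 were at least 2-fold higher (1.39 and 1.35). Il2rb was at 0.79 after thinning and Id2 at 0.69 without the cell of most UMIs, both under 2-fold. Prdm1, the antagonist of Bcl6, had no UMI in any of the 51 cells, but it was at only 4.44 and 2.75 CPM in the other conventional T cells and a lower level was not detectable at this depth.

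Many activation genes were higher, and 2 of them, Tnfrsf4 and Hif1a, were among the 10 highest genes. Of 17 such genes, 9 of 15 measured w/o butyrate and 9 of 14 w/ butyrate were at least 2-fold higher and 0 at least 2-fold lower, with 2 below 0 in each library. Among all measured genes, 8.42% and 9.68% were at least 2-fold higher and 4.61% and 5.32% at least 2-fold lower. Hif1a, the oxygen-sensing factor, was detected in 23 and 19 cells with 118 and 82 UMIs (3.14 and 2.91), and Cd44, the receptor of antigen-experienced T cells, was at 2.51 and 1.92. Ctla4 was at 1.56 and 2.03 and Nfatc1, a factor downstream of the T cell receptor, at 1.59 and 2.07. Tnfrsf4, encoding the costimulatory receptor OX40, was at 3.29 and 3.81, but 48.1% and 54.7% of its UMIs came from 1 cell in each library, and without that cell it was at 2.46 and 2.83. Eea1, Smco4, S100a11, Nav2 and Plekho1 filled the other ranks at 2.68 to 3.36.

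**Figure D2:**
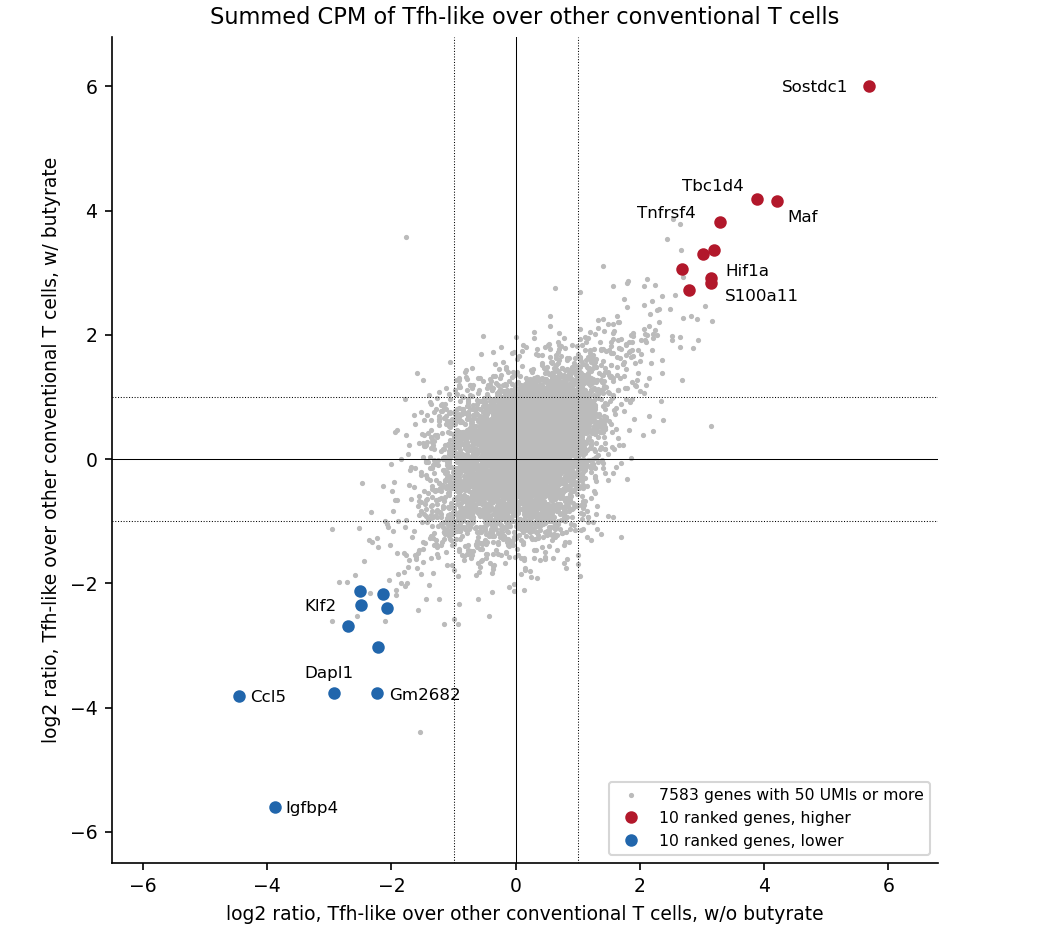
Log2 ratio of summed CPM (pseudocount 10 CPM) of Tfh-like over other conventional T cells, w/o butyrate on the horizontal and w/ butyrate on the vertical axis, for 7583 genes with distinct symbols and at least 50 UMIs; dotted lines mark 2-fold. The 10 highest ranked genes are red and the 10 lowest blue, with Sostdc1, Maf and Tbc1d4 apart at the top right and Igfbp4 and Ccl5 at the bottom left.

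The list of naive T cell genes was higher in the other conventional T cells. The Tfh-like cells were therefore also set beside conventional T cells with a Cd44 UMI and none of Ccr7. This class of 58 and 85 cells was chosen after seeing the data. Against these, Maf was at 2.16 and 2.11, Tbc1d4 at 2.88 and 3.09 and Hif1a at 2.79 and 2.54, while Icos was at 0.64 and 0.37. Il7r was lower by a wide margin (-3.51 and -2.99). In all, 88 genes were at least 2-fold higher and 66 lower of 1236 measured w/o butyrate, and 109 and 75 of 1733 w/ butyrate. The median UMIs of this class were 5049.5 and 5503 per cell.

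Detection of genes outside the rule climbed with the number of markers. Maf had a UMI in 5.75% of conventional T cells with 0 markers, 19.1% with 1, 53.8% with 2 and 93.8% with 3 or more w/o butyrate, and in 6.54%, 17.9%, 77.8% and 92.3% w/ butyrate. Ccr7 went the other way, from 64.4% with 0 markers to 47.2% with 1, 23.1% with 2 and 12.5% with 3 or more w/o butyrate, and from 66.7% to 55.1%, 33.3% and 7.69% w/ butyrate. The cells just outside the rule thus lay between both ends for both genes. Median depth was similar across these classes, at 4925, 4808, 5705 and 4846 UMIs w/o and 5622, 6030, 6304 and 6170 w/ butyrate.

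Cells with exactly 2 markers differed from those with more in some genes. Icos was detected in 30.8% and 33.3% of them, against 93.8% and 69.2% with 3 or more markers, whereas Klf2 was at 30.8% and 44.4% against 31.2% and 38.5%. Of the 29 cells w/o butyrate, 3 held none of Maf, Tbc1d4, Sostdc1 and Icos, and all 3 had exactly 2 markers and a UMI of Klf2 or Ccr7. Every cell w/ butyrate held at least 1 of the 4 genes. Tbc1d4 was detected in 46.2% of cells with 2 markers and 93.8% with more w/o butyrate, and in 88.9% and 100% w/ butyrate.

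**Figure D3:**
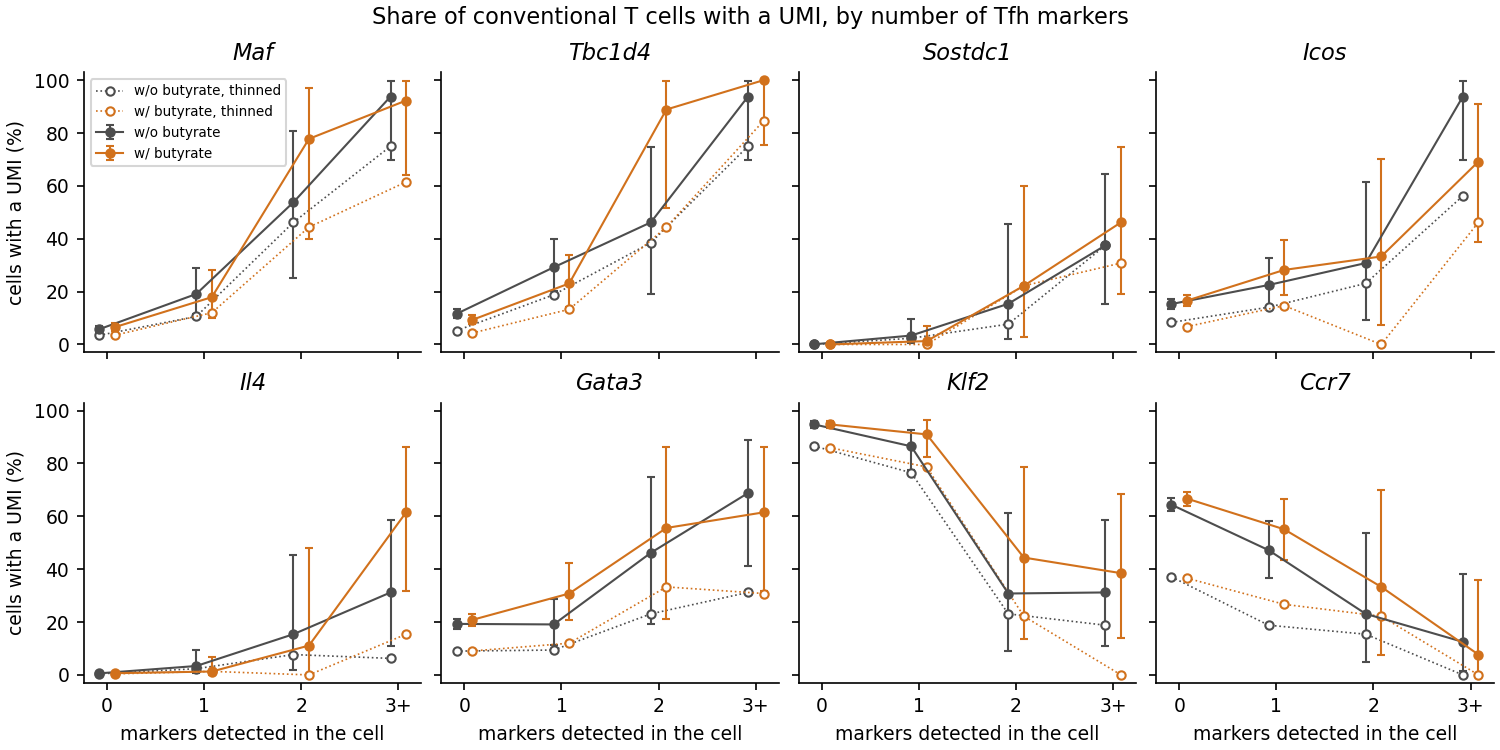
Percent of conventional T cells with a UMI of 8 genes (vertical axis) by the number of markers in the cell (horizontal axis), in each library; filled points carry exact 95% binomial bars and open points are after thinning to 2000 UMIs. Maf, Tbc1d4, Sostdc1, Il4 and Gata3 are highest in cells with 2 or more markers, and Klf2 and Ccr7 fall from 94.8% and 64.4% at 0 markers w/o butyrate.

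Of the 15 helper cytokine genes, Tnfsf8, which encodes CD30 ligand, had the most UMIs in these cells. It had 61 UMIs in 15 of 29 cells w/o butyrate and 119 in 18 of 22 w/ butyrate (2.43 and 3.54), of which 30 and 47 came from 1 cell. Il4 (chr11:53602982-53618669, minus strand), the cytokine gene of IgE and IgG1 switching, had 7 UMIs in 7 of 29 cells w/o butyrate (24.1%, 10.3 to 43.5) and 30 UMIs in 9 of 22 w/ butyrate (40.9%, 20.7 to 63.6), with 1 UMI and 10 UMIs in the highest cell. It was detected in 0.733% and 0.683% of other conventional T cells, 0.0619% and 0.272% of CD8+ T cells and 0.026% and 0.137% of B cells. Thinning brought the shares of Tfh-like cells to 6.9% and 9.09%, against 0.494% and 0.461% of the other conventional T cells. Il21 (chr3:37222759-37232636, minus strand), which the rule used, had 12 UMIs in 6 cells and 22 UMIs in 7, of which 11 came from 1 cell w/ butyrate. All 7 Il4+ cells w/o butyrate and 8 of 9 w/ butyrate also held Maf, beside 22 of 29 and 19 of 22 of all Tfh-like cells. Il4 and Il21 were seen together in 1 cell w/o and 5 cells w/ butyrate.

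The promoters of both genes carry the core of the Maf recognition element, TGCTGA, and are shown here because c-MAF is known to drive both. The 250 bases before each start are from RefSeq (GRCm38.p6), given on the coding strand of genes that lie on the minus strand, and capitals mark TGCTGA or its reverse complement TCAGCA.
Il4, chr11:53618666-53618915: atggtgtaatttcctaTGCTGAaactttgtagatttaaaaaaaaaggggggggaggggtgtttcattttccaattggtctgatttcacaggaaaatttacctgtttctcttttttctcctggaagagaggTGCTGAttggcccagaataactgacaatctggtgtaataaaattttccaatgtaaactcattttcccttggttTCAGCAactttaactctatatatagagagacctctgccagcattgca
Il21, chr3:37232637-37232886: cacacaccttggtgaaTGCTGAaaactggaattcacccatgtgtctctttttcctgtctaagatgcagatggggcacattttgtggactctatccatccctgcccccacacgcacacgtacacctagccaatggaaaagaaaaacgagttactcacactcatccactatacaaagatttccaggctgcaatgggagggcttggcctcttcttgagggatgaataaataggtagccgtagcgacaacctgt
The motif, the only one searched and read on both strands, occurred in 5282 of 32851 promoters of the same length (16.1%), and the window before another RefSeq start of Il4 had 0 copies. A match is a description of letters and not a site of binding.

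Il13, the cytokine gene in question in this study, had no UMI in any of the 51 Tfh-like cells, which allows a share of up to 5.88% of cells with a UMI (10.3% of 29 and 13.6% of 22). In the whole data 24 of 18100 cells (0.133%) held 1221 Il13 UMIs. Of these cells, 2 w/o butyrate and 3 w/ butyrate had CD3 and at least 2 Tfh markers, with 9 and 1113 Il13 UMIs in all. Of the 1113, 1085 came from 1 cell of 75016 UMIs, which also held 10 UMIs of CD8 genes and 3 of Cd79a or Cd79b, and the other cells w/ butyrate held 27 and 1. Each of the 5 fell to the gate: the cells w/o butyrate held 1 UMI of Cd79a or Cd79b in one and 3 of Mki67 or Top2a in the other, and each cell w/ butyrate carried UMIs of at least 2 of the gate's gene sets. They were also deep, with 31048 and 17362 UMIs w/o butyrate and 40026, 75016 and 25190 w/ butyrate. All 5 were deeper than any Tfh-like cell of their library. The absence of Il13 therefore holds for cells that passed this gate. The type 2 and helper cytokine genes Il5, Il9, Il10 and Csf2 were also at 0 in the 51 cells, Ifng had 6 UMIs in 2 cells and Il17a 5 in 1 cell w/o butyrate and both had none w/ butyrate.

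Gata3, the factor of the Th2 fate, was the 1 gene of the 10 Th2 genes with enough UMIs. It was detected in 17 of 29 (58.6%) and 13 of 22 cells (59.1%) against 19.3% and 21.4% of other conventional T cells, at log2 ratios of 1.26 and 1.54, and its share in B cells was 0.208% and 0.383%. After thinning, 27.6% and 31.8% of Tfh-like cells held a UMI of Gata3, against 9.02% and 9.22% of the other conventional T cells, and the log2 ratios were 0.56 and 1.90, under 2-fold w/o butyrate. Among Il4+ cells, 5 of 7 and 7 of 9 held Gata3. Against the Cd44+ class named above, Gata3 was at 0.46 and 0.53. IL-13-producing Tfh cells are called Tfh13 cells. The study looked at Bcl6, Gata3, Il4, Il13 and Il21 for them, of which Bcl6 and Il21 belong to the rule. No cell w/o butyrate and 3 cells w/ butyrate held Bcl6, Gata3, Il4 and Il21 together.

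Some genes of regulatory T cells were present although Foxp3 was excluded. Ikzf2, which encodes Helios, had a UMI in 18 of 29 (62.1%) and 16 of 22 cells (72.7%), against 9.72% and 9.95% of other conventional T cells and 72.5% and 68.4% of Foxp3+ T cells with under 2 markers. Thinned, these shares of Ikzf2 were 37.9% and 45.5%, 6.86% and 6.61%, and 59.0% and 52.2%. Its log2 ratio was 2.12 and 2.90 over other conventional T cells and -1.08 and -0.58 over Foxp3+ cells. Izumo1r was at 0.19 and 0.33 over the Foxp3+ cells, whereas Maf was at 2.09 and 2.46 and Tbc1d4 at 2.37 and 2.92. The regulatory T cell list of 6 genes summed to 656 and 931 CPM against 209 and 178 in other conventional T cells, with Ikzf2 as its most abundant gene and Lrrc32 at 0 in both libraries. Of 5 measured, 3 were at least 2-fold higher in each library, where 8.42% and 9.68% of all measured genes were. Tnfrsf18 stayed under 2-fold (0.81 and 0.61). Il2ra was at -0.45 w/o butyrate and just under 2-fold w/ butyrate, where it was at -0.52 without the cell of most UMIs. Foxp3 is sparse and a cell without a Foxp3 UMI may still express it; the part of such cells in these values was not tested. The 120 and 117 Foxp3+ cells had 4031 and 4503 median UMIs.

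Markers of other cell types ranged from 0 to levels above those of other conventional T cells. All 6 γδ T cell genes were at 0 in the 51 cells, against 97.7 and 84.2 CPM in the other conventional T cells, where 142 of 3004 conventional T cells (4.73%) held Trdc. Mast cell and basophil genes were at 0. The 11 B cell genes summed to 720 and 950 CPM against 606 and 548, a log2 ratio of 0.25 (-0.02 to 0.50) w/o and 0.79 (0.55 to 1.03) w/ butyrate. Ighm was the most abundant of them, with 65 UMIs in 21 of 29 cells and 77 in 17 of 22, and without it the list was at -0.13 (-0.53 to 0.24) and 0.55 (0.20 to 0.89). The 5 plasma cell genes reached 52.2 and 76.0 CPM, led by Xbp1, with Sdc1 and Tnfrsf17 at 0. NK cell genes summed to 139 and 146 CPM (24 and 23 UMIs), of which Nkg7 gave 22 UMIs in each library, all 22 from 1 cell w/o butyrate and 20 from 1 cell w/ butyrate, with Ncr1, Klrb1c, Klre1 and Gzma at 0. The 4 NKT cell genes summed to 75.4 and 63.3 CPM against 23.2 and 26.7, with Zbtb16 and Klrb1c at 0, and the 5 dendritic cell genes to 157 and 108 CPM against 84.7 and 109, all from Cst3, with Flt3, Itgax, Xcr1 and Siglech at 0. Myeloid genes were at 0 w/o butyrate and at 203 CPM w/ butyrate, where 1 cell held 29 UMIs of Lyz2 and 3 of C1qa. Apoe, a macrophage gene outside the list, ran the other way, with 63 UMIs in 6 cells w/o butyrate, 42 and 17 of them in 2 cells, and 0 w/ butyrate. The part of these cells in the results was not tested, but leaving out the 4 and 2 cells with at least 3 UMIs of Apoe, Lyz2, C1qa, Nkg7 or Eomes left 25 and 20 Tfh-like cells, 1.51% and 1.5% of conventional T cells.

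The share of Tfh-like cells differed between the groups by less than counting error. They made up 1.74% of conventional T cells w/o butyrate (29 of 1665, 1.17 to 2.49) and 1.64% w/ butyrate (22 of 1339, 1.03 to 2.48), a log2 ratio of -0.08 (-0.95 to 0.77). Of all cells past the filters they were 0.305% and 0.256%, a log2 ratio of -0.26 (-1.13 to 0.59). Cells with 3 or more markers were 0.961% and 0.971%. The interval of each ratio spanned 0, which does not show that the groups were alike.

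Cycling cells with Tfh markers, which the rule set aside, differed more. Of cycling T cells, which held Mki67 or Top2a but no other gate gene, 22 of 83 w/o butyrate (26.5%, 17.4 to 37.3) and 4 of 68 w/ butyrate (5.88%, 1.63 to 14.4) had at least 2 of the markers, a log2 ratio of -2.17 (-4.17 to -0.61). The 22 cells held Pdcd1 in 19, Tox2 in 16, Bcl6 in 15, Cxcr5 in 12 and Il21 in 9, and Il4 was detected in 59.1% of them. Their median depth was 9177 UMIs, and 8632.5 in the 4 cells w/ butyrate. With the markers counted after thinning, the shares were 10.8% (9 of 83) and 2.99% (2 of 67), a log2 ratio of -1.86 with an interval that spanned 0 (-5.11 to 0.41), and with the whole rule applied after thinning they were 5.06% (4 of 79) and 4.26% (2 of 47). Adding the cycling cells to the Tfh-like cells gave 2.92% and 1.85%, a log2 ratio of -0.66 (-1.40 to 0.05). Among Foxp3+ T cells, 2 of 122 (1.64%) and 7 of 124 (5.65%) had at least 2 markers, a log2 ratio of 1.78 (-0.61 to 5.09).

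**Figure D4:**
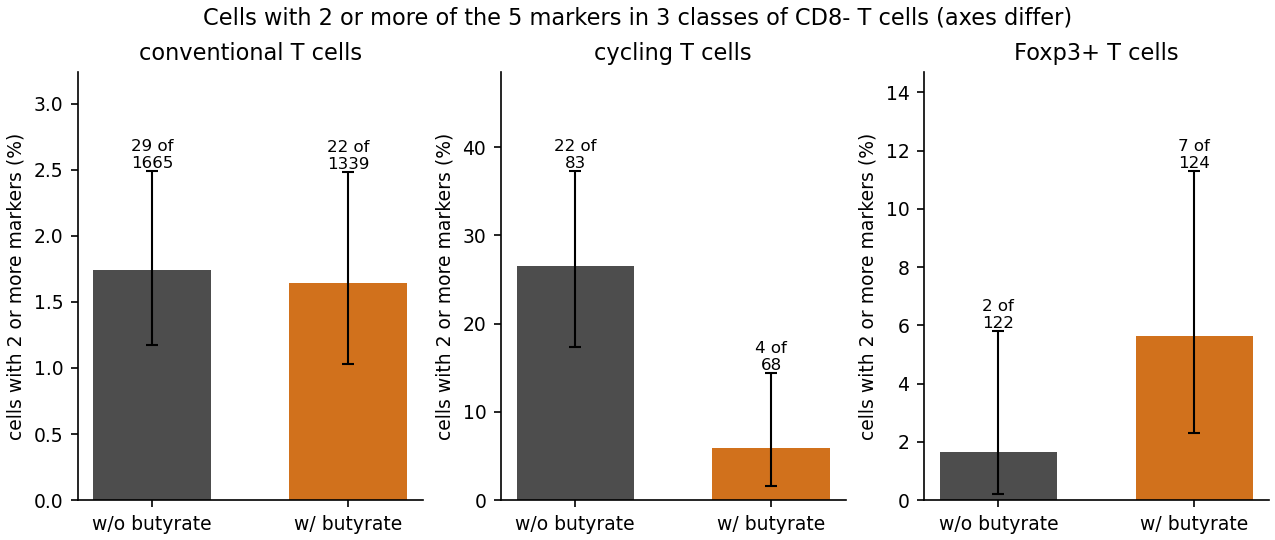
Percent of conventional, cycling and Foxp3+ T cells with at least 2 of the 5 markers (vertical axes, which differ in range) w/o and w/ butyrate, with exact 95% binomial bars and the counts above them. The bars are near each other in conventional T cells, and in cycling T cells 22 of 83 stand against 4 of 68.

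Within the Tfh-like cells few genes differed between the libraries by 2-fold. Of 895 measured genes, 12 (1.34%) were at least 2-fold higher and 6 (0.67%) at least 2-fold lower w/ butyrate, at a median of 0.02. In the other conventional T cells, with far more UMIs, 6 of 8896 genes (0.0674%) were higher and 9 (0.101%) lower, at a median of 0.01. Of the genes that mark the cells, Maf was at -0.04 (without pseudocount -0.04, -0.44 to 0.37), Icos at -0.04 (-0.04, -0.78 to 0.68) and Sostdc1 at 0.19 (0.20, -0.21 to 0.61), while Batf was at 0.71 (0.74, 0.07 to 1.43), Slamf6 at 0.67 (0.70, 0.05 to 1.36) and Il6ra at 0.59 (0.63, -0.17 to 1.45). Batf was at 0.02 without the cell of most UMIs, and after thinning Batf was at -0.23 and Slamf6 at -0.13. The list of 20 other Tfh genes summed to a log2 ratio of 0.18 (0.03 to 0.33) in Tfh-like cells and -0.02 (-0.06 to 0.02) in the other conventional T cells, and 0 of its 9 measured genes reached 2-fold.

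Ranks were limited to genes with at least 100 CPM in a library and no cell with over 25% of the UMIs. The genes that ranked highest w/ butyrate had low counts. Mier1, a transcriptional repressor that recruits histone deacetylases, went from 20 UMIs in 10 cells to 46 UMIs in 19 (log2 ratio 1.26, without pseudocount 1.33, 0.54 to 2.16) and was at -0.14 in the other conventional T cells. After thinning it was at 0.68, under 2-fold. Lbh went from 35 UMIs in 16 cells to 72 in 18 (1.13, without pseudocount 1.17, 0.57 to 1.79) and was at 0.06 in the others; as a mean over cells it was at 0.99, and at 0.96 without the 4 and 2 cells with Apoe, Lyz2, C1qa, Nkg7 or Eomes. Trim12a (1.06, and 0.92 after thinning) and Arpc4, a subunit of the actin-branching ARP2/3 complex (1.02, and 0.98 without the cell of most UMIs), followed, and Gltp, Mrpl33, Calm3, Lsp1, Pycard and Gnb1 ranked below 2-fold at 0.89 to 0.96. Outside these limits, Id2, which opposes the Tfh fate, went from 15 UMIs in 8 cells to 45 in 9 (1.60). It was at 1.15 without the cell of most UMIs.

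Lower w/ butyrate were Sptbn1, a spectrin of the membrane skeleton, from 39 UMIs in 22 cells to 11 in 11 (-1.57, without pseudocount -1.70, -2.81 to -0.71), and Dusp2, a phosphatase that switches off MAP kinases, from 64 UMIs in 19 cells to 19 in 9 (-1.55, without pseudocount -1.63, -2.45 to -0.87). The other conventional T cells were at -0.06 for Sptbn1 and -0.40 for Dusp2. Ndufa8 (-1.12) and Ndufb10 (-0.96), both subunits of respiratory complex I, stood at 0.17 and 0.04 in the other conventional T cells. Cox17, a copper chaperone, was at -1.06, but at -0.29 after thinning. Npc2 (-1.01), Ddx21 (-1.0), Mtdh (-0.98), Slc50a1 (-0.90) and Art2b (-0.89) completed the 10 lowest under the same limits. Apoe was at least 19.2-fold lower w/ butyrate and was at -1.31 in the other conventional T cells. Of its 63 UMIs w/o butyrate, 42 and 17 came from 2 cells, so this bound rests mainly on those cells.

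The sums of several lists were higher w/ butyrate. The Th2 list summed from 32 to 68 UMIs, a log2 ratio of 1.21 (0.59 to 1.87). In the other conventional T cells it was at -0.06 (-0.25 to 0.13). Il4 alone was at 1.98 (without pseudocount 2.23, 1.01 to 3.66), and without Il4 the list was at 0.73 (-0.04 to 1.52). Of the 30 Il4 UMIs w/ butyrate, 10 came from a cell of 13266 UMIs, 9 from one of 9262 and 4 from one of 15858. The helper cytokine list was at 0.92 (0.56 to 1.29), led by Tnfsf8, which was at 1.07 and, after thinning, at 0.69. Without Tnfsf8 the list was at 0.61 (0.00 to 1.23). Il4 also belongs to this list and gave 7 and 30 of the 40 and 56 UMIs left without Tnfsf8. The Th2 sum, the helper cytokine sum and the sum of Tfh13 genes below all hold Il4 and are not separate results. NF-kB genes summed to 0.50 (0.24 to 0.77), but 60.8% of the 171 Nfkbia UMIs w/ butyrate came from 1 cell, and without Nfkbia, the inhibitor of NF-kB, the list was at -0.29 (-0.67 to 0.08). Intervals above 0 were also found for B cell genes (0.40, 0.05 to 0.76, and 0.43, -0.08 to 0.95 without Ighm), regulatory T cell genes (0.51, 0.14 to 0.87), genes lowered in Tfh cells (0.51, 0.25 to 0.77) and anergy and checkpoint genes (0.32, 0.04 to 0.60). Regulatory T cell genes were at 0.58 (0.08 to 1.09) without Ikzf2, and genes lowered in Tfh cells at 0.37 (0.10 to 0.64) without Id2. Il2ra belongs to both of these lists. The Tfh13 genes named above were chosen by the study on these samples, and Bcl6 and Il21 among them belong to the rule. These 5 genes summed from 59 to 92 UMIs (0.77, 0.28 to 1.26), of which Il4 gave 7 and 30 and Il13 none. Bcl6 gave 18 and 15 of these UMIs and Il21 12 and 22. The cell of 13266 UMIs w/ butyrate alone held 11 of Il21, 10 of Il4, 4 of Bcl6 and 4 of Gata3. The higher sum therefore rests in part on 1 cell, and a ratio without that cell was not calculated. The 8 p38 MAPK genes, which with NF-kB form the pathway the study asked about, summed to only 21 and 26 UMIs, a log2 ratio of 0.43 (-0.45 to 1.34). A change in these transcripts was not detectable at this depth. The study followed that pathway by protein phosphorylation and with inhibitors. Transcript sums of the p38 MAPK and NF-kB lists do not measure its activity. The 13 stress genes of cell handling were at -0.01 (-0.15 to 0.13), against -0.28 in the other conventional T cells.

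The summed interferon response was lower w/ butyrate, although the 1 gene measured in Tfh-like cells, Ifi27l2a, was at -0.22 and under 2-fold. The 18 genes summed to a log2 ratio of -0.37 (-0.54 to -0.21) in Tfh-like cells and -0.89 (-0.92 to -0.86) in the other conventional T cells. Ifi27l2a, with 513 and 403 of the UMIs, carried the Tfh-like sum, and without it the list was at -0.79 (-1.13 to -0.47) against -0.82 (-0.86 to -0.79). Of the 18 genes, 15 had a lower CPM w/ butyrate and 2 a higher one, where 46.3% of all 10096 genes with a UMI had a lower one, but all except Ifi27l2a had at most 48 UMIs in both libraries together. Isg15 went from 27 to 11 UMIs, Slfn1 from 33 to 12 and Ifi47 from 26 to 16. Further falls were in low counts, where Bst2, which tethers virus particles, went from 36 UMIs in 14 cells to 5 in 4, and Irf7, the factor that amplifies interferon, from 12 UMIs in 9 cells to 2 in 1. Ifi27l2a was also the 1 gene of the list that was at least 2-fold higher in Tfh-like than in other conventional T cells (1.32 and 2.11), while Ifit1 was lower in both (-1.91 and -1.51), though at -0.56 w/ butyrate after thinning.

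**Figure D5:**
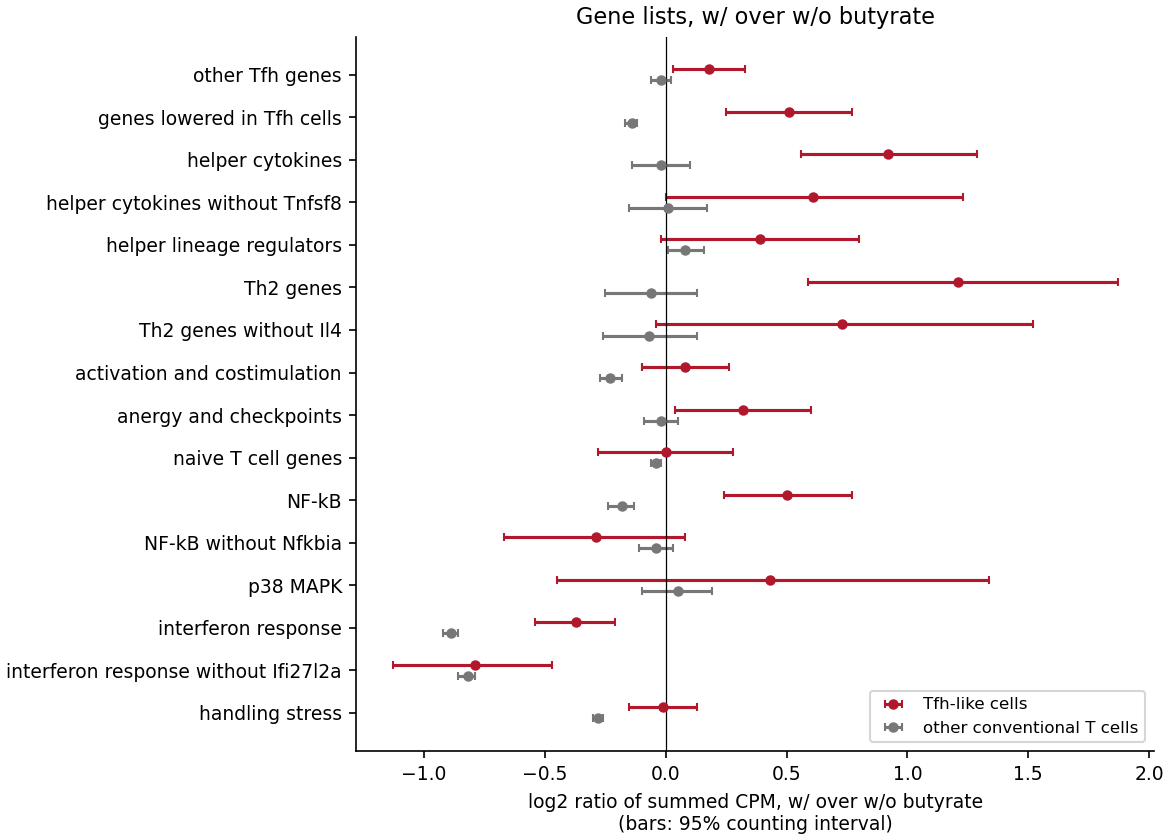
Log2 ratio of summed CPM, w/ over w/o butyrate (horizontal axis), for gene lists (vertical axis) in Tfh-like cells (red) and other conventional T cells (grey), with 95% counting intervals. The Th2 and NF-kB sums of Tfh-like cells are 1.21 and 0.50, and 0.73 and -0.29 without Il4 and Nfkbia. Helper cytokines, a list that also holds Il4, move from 0.92 to 0.61 without Tnfsf8. The interferon response is below 0 in both classes.

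Of 6 genes for sensing and uptake of butyrate, 5 were not detected in these cells, which does not show that they are absent. The receptor genes Ffar2, which encodes GPR43, Ffar3 and Hcar2, and the transporter genes Slc16a1 and Slc5a8 had no UMI in any of the 51 cells. This allows a share of up to 5.88% of cells with a UMI, which is no limit on cells that express these genes. Ffar2 was detected in 0.233% of the 3004 conventional T cells and Slc16a1 in 2.93%, so 51 cells hold little information on either. Slc16a3, a lactate and monocarboxylate transporter, had 7 UMIs in 6 of 29 cells w/o butyrate (20.7%, 7.99 to 39.7) and none in 22 w/ butyrate, where up to 13.6% is allowed; it was detected in 0.489% and 0.607% of other conventional T cells.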

How the data were processed

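MedLN cells were sequenced as 1 droplet library per group, and the authors deposited UMI counts per gene and cell. Per the labels (the submitters' processing notes), reads were processed with Cell Ranger 6.0.1 on mm10. Cells with at most 10% mitochondrial UMIs and at least 200 genes were kept. Scrublet doublets (scanpy 1.11.5; 721 and 592 cells at a rate scaled to the cell number, 377 and 233 at its own threshold) included 0 of the 51 Tfh-like cells and were kept. The members and gene lists were chosen with earlier results of these data known. Counts were summed per class and library, scaled to CPM and compared as log2 ratios with a pseudocount of 10 CPM; genes whose 2 sums held under 50 UMIs together were left out of counts, medians and ranks, and where one is named its UMIs are given. Intervals were 95% exact binomial (Clopper-Pearson) or exact conditional intervals of count ratios; a count of 0 was taken to allow up to 3. PCR duplicates were collapsed by UMI. No test was made. The ratio calculation was tested on simulated data, and the interval calculations were not.

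Named genes were all list genes, the 10 highest and 10 lowest ratios of Tfh-like over other conventional T cells by the smaller absolute log2 ratio of both libraries (same sign, at least 100 CPM in a class in each library), and the 10 highest and 10 lowest w/ over w/o butyrate (at least 100 CPM in a library, no cell with over 25% of the UMIs). Variable segments, sex-linked transcripts, the 5 markers and the gate genes were left out of the ranks; Apoe was named after its values were seen. Positions are from GENCODE M21, which matched 30934 of 31053 genes. Python 3.11.15, numpy 2.4.6, scipy 1.17.1 and pandas 2.3.3 were used. Alternatives covered the rule, depth, pseudocount, count minimum, doublets, comparison class and single cells. Some genes that the rule for named genes or a list covered are not reported here.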

Additional observations from a re-analysis of the deposited data

Results flagged for a closer look

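Lyz2, a myeloid gene, had a log2 ratio of Tfh-like over other conventional T cells of -1.76 w/o butyrate and 3.58 w/ butyrate. The values lay on opposite sides of 0 and the difference was not tested. All 29 UMIs w/ butyrate came from 1 cell, and w/o butyrate there were 0 UMIs in 29 cells, so that -1.76 is set by the pseudocount and the counts show a level at least 1.36-fold lower.

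Tfh markers appeared in cells that the rule left out. At least 2 markers were found in 22 of 83 cycling T cells w/o butyrate and 4 of 68 w/ butyrate, and in 2 of 122 and 7 of 124 Foxp3+ T cells. Cycling cells with markers counted after thinning were 9 of 83 and 2 of 67 (log2 ratio -1.86, -5.11 to 0.41). With the whole rule applied after thinning they were 4 of 79 and 2 of 47 (-0.25, -3.72 to 2.55). Both intervals spanned 0, as did that of the Foxp3+ ratio (-0.61 to 5.09).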

How the results depend on the processing

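No paired analysis was possible because each group was 1 library, so there was also no replicate to leave out. With 51 cells, genes under about 100 CPM gave few UMIs and a modest difference in such genes or in shares was not detectable; a library effect and butyrate cannot be told apart. The log2 ratio of the shares stayed between -0.66 and 0.60 over 16 alternatives, all with intervals that spanned 0. The shares w/o and w/ butyrate were 0.961% and 0.971% with at least 3 markers, 0.541% and 0.822% with both Cxcr5 and Pdcd1, 2.69% and 2.62% with Cd4 required, and 0.305% and 0.256% of all cells; keeping cycling cells gave 2.92% w/o butyrate, and thinning before the rule gave 1.0% w/ butyrate. For Tfh-like over other conventional T cells, a pseudocount of 1 CPM gave 1289 higher and 890 lower genes w/o butyrate and 1304 and 952 w/ butyrate, thinning gave 800 higher and 756 lower of 5446 genes w/o (14.69% and 13.88%) and 770 and 769 of 4906 w/ butyrate (15.7% and 15.67%), with 304 higher and 201 lower, and 305 and 173, shared with the unthinned calls, and the Cd44+ class gave 88 and 66 of fewer genes measured w/o and 109 and 75 w/ butyrate. Between the libraries, a minimum of 20 UMIs gave 80 higher and 67 lower of 2456 genes. Thinning gave 3 and 3 of 236 genes, of which 2 and 0 were among the unthinned calls. The cells with Apoe, Lyz2, C1qa, Nkg7 or Eomes were chosen after seeing the data. Leaving them out gave 11 higher and 1 lower of 731 genes, of which 7 and 1 were among the main calls. Of ratios over other conventional T cells past 2-fold, signs changed (to a value beyond 0.05) with the cell of most UMIs left out for Egr3 (-0.22 and -0.13), Nkg7 (-2.77 w/o butyrate) and Lyz2 (-0.69 w/ butyrate), with the cells named above left out for Nkg7 (-2.77), Lyz2 (-0.69) and Egr3 w/ butyrate (-0.08), and with thinning for Egr3 (-1.08) and Cd160 (-0.69) w/ butyrate; except for left-out cells the cause was not tested. Of 1990 values of named genes under alternatives, 1857 moved by less than their counting interval, 124 moved further and these 9 changed sign; at any size of the ratio 129 changed sign, 30 of them without the cell of most UMIs and 56 with thinning, among them Il2ra w/ butyrate, just under 2-fold (-0.52 and -1.34). Of the 13 named genes past 2-fold between the libraries, 9 kept it after thinning, losing Tnfsf8, Mier1, Trim12a and Cox17. Without the cell of most UMIs 11 kept it, losing Nfkbia and Arpc4. As a mean over cells 10 kept it, losing Lbh, Trim12a and Arpc4. The same genes were lost, and 10 kept it, with the cells of Apoe, Lyz2, C1qa, Nkg7 or Eomes left out.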

Other observations

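Variable segments of the T cell receptor were diverse as far as they were read. A Trbv segment had a UMI in 10 of 29 Tfh-like cells w/o butyrate, over 6 segments with Trbv2 in 3 cells, and in 7 of 22 w/ butyrate, over 7 segments with Trbv3 in 2. The shares, 34.5% and 31.8%, stood beside 19.4% and 19.4% of other conventional T cells. A Trav segment was read in 9 cells (7 segments) and 7 cells (6 segments). Whole receptor sequences were not analysed here, so clones were not assessed.

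A single cell w/ butyrate stood out among the Tfh-like cells. It had 13266 UMIs, all 5 markers, 53 UMIs of Sostdc1, 47 of Tnfsf8, 35 of Tnfrsf4, 24 of Batf, 11 of Il21 and 10 of Il4.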
